A study of Mus musculus with 19 samples.

Results

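The 8 Gimap genes were followed in the infrarenal aorta of mice of the inbred strain C57BL/6J, taken 7 days after the aorta had been infused with elastase or saline. They were Gimap1, Gimap3, Gimap4, Gimap5, Gimap6, Gimap7, Gimap8 and Gimap9, which are 8 of the 30142 genes measured with a probe set of exactly 1 gene symbol and all 8 mouse genes whose RefSeq symbol starts with Gimap. Members were selected on their symbol and, where a gene has several probe sets, on the measured mean signal over the 19 arrays, the brightest standing for the gene. Each Gimap gene had 1 probe set, so brightness decided nothing here. The family was picked for description with earlier results of these data known, so its adjusted p-values for elastase against saline describe the genes and are no independent evidence.

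Surgery was at 10 weeks of age. The infrarenal segment was closed off and infused for 5 min at 120 mmHg with saline (sham) or with saline holding type I porcine pancreatic elastase at 2.5 U/mL (PPE), an enzyme that digests elastin and so induces an aneurysm of the abdominal aorta. The whole segment below the left renal artery, freed of surrounding fat under a microscope, was hybridised to Clariom D arrays (MTA 1.0), 1 mouse per array. There were 3 sham and 4 PPE females and 5 sham and 7 PPE males, and group sizes this small limit precision. Values are the deposited log2 signals, so a difference of 1 is a 2-fold change of signal.

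GIMAP proteins, the GTPases of immunity-associated proteins, bind GTP through a shared domain and sit on the membranes of organelles such as lysosomes. They are best known from lymphocytes, whose survival and turnover several of them control, and loss of Gimap5 in rats and mice depletes lymphocytes. Several members are also made by endothelial cells, so the aortic wall can hold their RNA without any lymphocyte. In whole tissue, more cells of a type and more RNA per cell cannot be told apart.

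The 8 genes lie side by side on mouse chromosome 6, from 48647186 to 48770851 (mm10, RefSeq annotation of GRCm38.p6), a stretch of 123.7 kb with no other protein-coding gene inside it. In order they are Gimap8 (48647186 to 48660875), Gimap9 (48676121 to 48679116), Gimap4 (48684578 to 48692062), Gimap6 (48701583 to 48708244), Gimap7 (48718621 to 48724636), Gimap1 (48739047 to 48743795), Gimap5 (48746197 to 48754200) and Gimap3 (48764464 to 48770851). Gimap6 and Gimap3 are on the minus strand and the others on the plus strand. Gimap3 and Gimap5 are closely related copies, and where a probe matches both, their signals cannot be fully separated; the probe sequences were not used here.

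RefSeq promoter windows were at hand for all 8 genes, 9 windows of 300 bases, since Gimap8 has 2 annotated starts. Each window runs from 250 bases before the annotated start to 50 bases after it. Those of 4 genes are shown 5′ to 3′ because the results below turn on them. Gimap3 and Gimap4 had the largest differences after PPE, Gimap1 had the smallest averaged over the sexes, and Gimap5 is the close relative of Gimap3. Capitals mark every match, on either strand, to 5 searched motifs: GGAAGT (ETS), TGTGGT (RUNX), CTTTGA (TCF and LEF), TTCNNNGAA (STAT) and GAAANNGAA (IRF).
Gimap3 (chr6:48770802-48771101, minus strand): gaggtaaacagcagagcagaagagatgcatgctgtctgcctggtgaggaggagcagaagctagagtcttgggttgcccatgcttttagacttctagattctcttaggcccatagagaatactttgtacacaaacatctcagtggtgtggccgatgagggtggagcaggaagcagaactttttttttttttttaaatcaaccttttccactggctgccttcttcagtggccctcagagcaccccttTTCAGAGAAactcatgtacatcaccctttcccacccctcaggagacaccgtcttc
Gimap4 (chr6:48684328-48684627, plus strand): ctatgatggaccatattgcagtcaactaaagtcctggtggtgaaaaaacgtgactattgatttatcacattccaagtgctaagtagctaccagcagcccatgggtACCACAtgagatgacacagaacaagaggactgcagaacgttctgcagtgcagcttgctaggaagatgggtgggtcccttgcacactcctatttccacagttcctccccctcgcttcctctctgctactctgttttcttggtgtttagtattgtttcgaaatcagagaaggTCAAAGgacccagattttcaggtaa
Gimap1 (chr6:48738797-48739096, plus strand): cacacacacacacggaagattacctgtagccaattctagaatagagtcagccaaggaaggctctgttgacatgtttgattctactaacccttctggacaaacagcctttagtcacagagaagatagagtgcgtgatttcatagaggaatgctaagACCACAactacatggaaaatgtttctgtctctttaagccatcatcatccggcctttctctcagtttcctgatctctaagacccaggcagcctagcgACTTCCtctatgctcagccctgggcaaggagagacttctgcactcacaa
Gimap5 (chr6:48745947-48746246, plus strand): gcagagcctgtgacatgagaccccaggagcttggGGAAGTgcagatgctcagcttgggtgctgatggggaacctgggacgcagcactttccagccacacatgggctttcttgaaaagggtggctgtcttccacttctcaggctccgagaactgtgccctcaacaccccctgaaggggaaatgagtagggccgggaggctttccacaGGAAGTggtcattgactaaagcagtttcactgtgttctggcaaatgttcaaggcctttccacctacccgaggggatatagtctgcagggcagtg

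The ETS letters stood in the windows of 4 of the 8 genes (Gimap1, Gimap5, Gimap6 and Gimap9), against 23.8% of all 32851 windows of this length. The RUNX letters stood in 3 (Gimap1, Gimap4 and Gimap7), against 16.8%, and the TCF and LEF letters in 2 (Gimap4 and Gimap7), against 16%. The STAT letters stood in 4 (Gimap3, Gimap6, Gimap7 and, at its second start, Gimap8), against 8.3%. In Gimap7 the STAT and the TCF and LEF matches overlap. The IRF letters stood in none of the 9 windows, against 8.56% of all windows. Gimap3 and Gimap4 shared no motif of this set, and Gimap1 held both RUNX and ETS letters. These matches describe letters in the windows and show no binding.

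After PPE, 7 of the 8 genes rose in males and 6 of 8 in females (limma, Benjamini-Hochberg adjusted p below 0.05 over all genes). In males 9.67% of all genes were called higher, and in females 2.77%. Gimap3 and Gimap4 had the 2 largest differences in both sexes, between 2.83-fold and 4.10-fold. Gimap1 was called in neither sex taken alone, but was called in the difference averaged over the sexes (0.27 ± 0.08, adjusted p = 0.0256, limma). The median difference of the 8 genes was 0.59 in males and 0.85 in females, beside 0.01 and -0.02 over all 30142 genes.

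**Figure D1:**
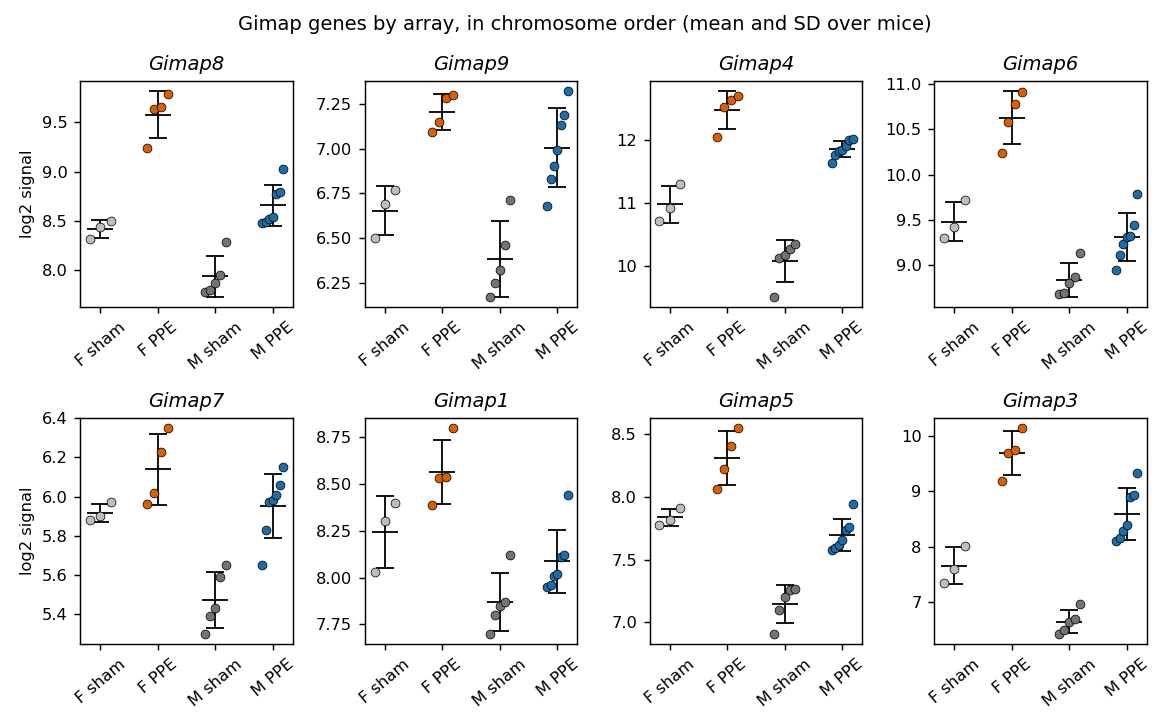
Log2 signal of each Gimap gene (vertical axes, a separate scale for each gene) in female (F) and male (M) sham and PPE aortae; points are mice, and bars give the mean and SD of 3, 4, 5 and 7 mice. The PPE points lie above all sham points of the same sex for Gimap3, Gimap4, Gimap5 and Gimap8 in both sexes and for Gimap6 and Gimap9 in females, and the groups overlap for Gimap1 and Gimap7.

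Gimap3, which acts with Gimap5 in keeping T cells alive, rose in both sexes. In females its log2 signal was 7.35, 7.60 and 8.01 in sham and 9.69, 9.74, 10.14 and 9.18 in PPE aortae. In males it was 6.96, 6.70, 6.43, 6.64 and 6.49 in sham aortae, and it ran from 8.11 to 9.33 with a median of 8.39 over the 7 PPE aortae. No PPE array reached down to a sham array of its sex, and male PPE 3 and female PPE 3 were the highest of their groups. The difference was 1.94 ± 0.21 (SE) in males (3.84-fold, adjusted p = 3.82e-06, limma) and 2.03 ± 0.27 in females (4.10-fold, adjusted p = 0.0018). Only 0.577% of all genes in males and 0.305% in females had a higher difference.

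Gimap4, a T cell member tied to the pace of cell death after an apoptotic signal, also rose in both sexes. Its signal was 10.91, 10.71 and 11.30 in female sham and 12.63, 12.53, 12.70 and 12.04 in female PPE aortae. The male sham values were 10.12, 10.27, 10.34, 10.16 and 9.50, and the male PPE values ran from 11.64 to 12.01 (median 11.84). The 7 male PPE arrays lay close together (SD 0.13), whereas male sham 5 lay well below the rest of its group (SD 0.33). The difference was 1.78 ± 0.14 in males (adjusted p = 5.75e-07, limma) and 1.50 ± 0.19 in females (adjusted p = 0.00167), and the groups did not overlap in either sex. For Gimap3 and Gimap4 the call held in every one of the 29 alternative analyses in each sex, which included leaving out each array in turn.

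Gimap8 is the largest gene of the cluster, and its protein carries GTP-binding domains in tandem. Female sham values were 8.32, 8.44 and 8.50, and female PPE values 9.63, 9.65, 9.79 and 9.24. Male sham values were 7.87, 7.95, 7.80, 8.29 and 7.78, and male PPE values ran from 8.48 to 9.03 (median 8.54). The nearest arrays of the male groups, the lowest PPE at 8.48 and male sham 4 at 8.29, were close but did not overlap. The difference was 0.72 ± 0.12 in males (adjusted p = 0.000168, limma) and 1.16 ± 0.15 in females (adjusted p = 0.0018).

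Gimap6 binds the autophagy protein GABARAPL2. It read 9.42, 9.30 and 9.72 in female sham and 10.58, 10.78, 10.91 and 10.24 in female PPE aortae, with no overlap. In males it read 8.81, 8.69, 8.87, 9.14 and 8.68 in sham and from 8.95 to 9.79 (median 9.31) in PPE aortae, and here male sham 4 reached above the lowest PPE arrays. It rose by 1.15 ± 0.18 in females (adjusted p = 0.00262, limma) and by 0.47 ± 0.14 in males (adjusted p = 0.0208). The male call was lost without male sham 2 (adjusted p = 0.0543) or male sham 5 (adjusted p = 0.0567) and with the replicate number as a block (adjusted p = 0.0755).

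Gimap5, whose loss depletes lymphocytes and whose protein sits on lysosomes, rose less than its relative Gimap3. Female values were 7.82, 7.78 and 7.91 in sham and 8.22, 8.41, 8.55 and 8.06 in PPE aortae. Male values were 7.10, 7.26, 7.27, 7.20 and 6.91 in sham and ran from 7.58 to 7.94 (median 7.66) in PPE aortae. All PPE arrays lay above all sham arrays in both sexes. The difference was 0.55 ± 0.09 in males (adjusted p = 0.000173, limma) and 0.47 ± 0.12 in females (adjusted p = 0.025). The female call was lost without any of the 3 female sham arrays, female PPE 2 or female PPE 3, with adjusted p up to 0.12, and after quantile normalization (adjusted p = 0.0524), median centring (adjusted p = 0.0703) or with only the groups compared (adjusted p = 0.0612).

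Gimap9 lies between Gimap8 and Gimap4 in the cluster and rose in both sexes. Female sham values lay between 6.50 and 6.77 and female PPE values between 7.09 and 7.30. In males sham lay between 6.17 and 6.71 and PPE between 6.68 and 7.32, so that male sham 4, at 6.71, overlapped the lowest PPE array. The difference was 0.62 ± 0.11 in males (adjusted p = 0.000398, limma) and 0.55 ± 0.14 in females (adjusted p = 0.0343). The female call was lost when any 1 female array except PPE 4 was left out, with adjusted p up to 0.185 without female sham 2, and with median centring (adjusted p = 0.06) or the replicate block (adjusted p = 0.0698).

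Gimap7 and Gimap1 had the smallest differences averaged over the sexes, 0.35 ± 0.07 (adjusted p = 0.00218, limma) and 0.27 ± 0.08 (adjusted p = 0.0256). Both were called in that average, in which 5056 of all 30142 genes were called in either direction. Gimap7, which hydrolyses GTP when it pairs with another copy of itself, was a dim probe set, between the 41.0th and the 57.6th percentile of all probe sets on the 19 arrays. It rose in males, from 5.30 to 5.65 in sham to 5.65 to 6.15 in PPE aortae (0.48 ± 0.09, adjusted p = 0.000769, limma), with 1 value tied between the groups. In females it ran from 5.88 to 5.97 in sham and from 5.96 to 6.35 in PPE aortae (0.22 ± 0.12, 95% interval -0.02 to 0.47, adjusted p = 0.416). Gimap1, which mature B and T cells need to persist, ran from 7.70 to 8.12 in male sham and from 7.95 to 8.44 in male PPE aortae (0.22 ± 0.10, 95% interval 0.01 to 0.43, adjusted p = 0.142). In females it ran from 8.03 to 8.40 and from 8.39 to 8.80 (0.32 ± 0.13, 95% interval 0.05 to 0.59, adjusted p = 0.211). Gimap1 was called in males after median centring (adjusted p = 0.0166) and in females with array weights (adjusted p = 0.0359).

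Complete separation, with all PPE arrays above all sham arrays, held for 4 of 8 genes in males and 6 of 8 in females. Of all genes, 4.69% in males and 11% in females were separated in that direction. The 4 genes separated in both sexes were Gimap3, Gimap4, Gimap5 and Gimap8.

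The differences of the genes were compared within arrays, in descending order. In males Gimap4 exceeded Gimap8, the next in order, by 1.05 (95% interval 0.78 to 1.33), and each of the other 6 steps in the order, from Gimap3 to Gimap4 at the top to Gimap6 to Gimap1 at the bottom, had an interval that held 0. In females Gimap3 exceeded Gimap4 by 0.53 (0.02 to 1.05) and Gimap6 exceeded Gimap9 by 0.60 (0.25 to 0.94), and the other 5 steps had intervals that held 0. The order was set by the same differences, so every step is positive by construction and the intervals lean away from 0. They describe the order, are no tests of it, and are not adjusted for the 14 steps.

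**Figure D2:**
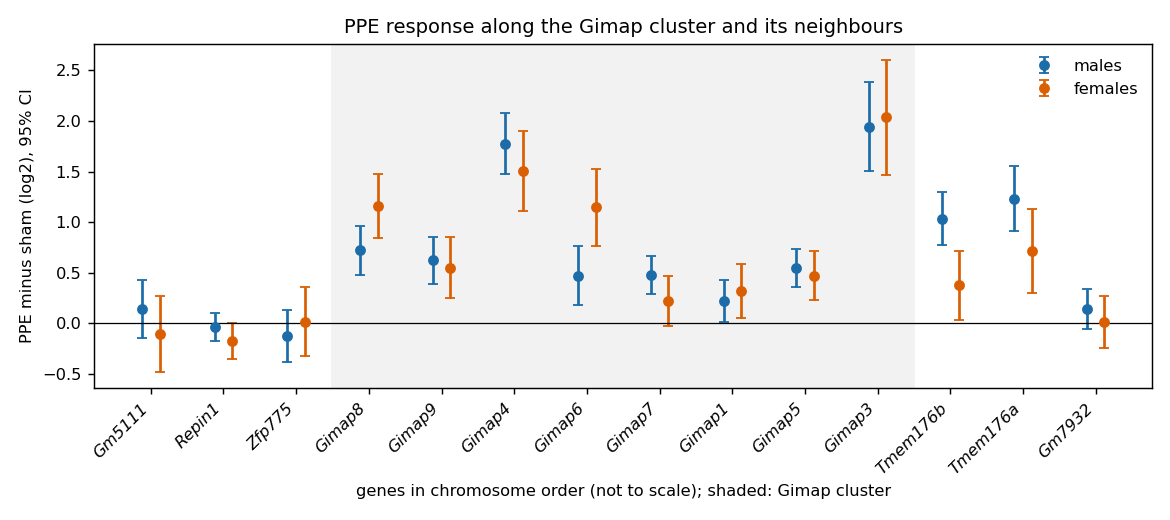
PPE minus sham on the log2 scale (vertical axis) with 95% intervals in males (7 and 5 mice) and females (4 and 3 mice) for the Gimap genes (shaded) and the 3 nearest measured protein-coding genes on each side, in chromosome order. Gimap3 and Gimap4 lie highest in both sexes, the proximal neighbours lie near 0, and Tmem176b and Tmem176a on the distal side lie above 0.

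Gimap3 and Gimap4, the genes with the largest differences, are not neighbours but are separated by Gimap6, Gimap7, Gimap1 and Gimap5. In males these 4 were at 0.47, 0.48, 0.22 and 0.55, beside 1.94 and 1.78 for Gimap3 and Gimap4. In females Gimap6, next to Gimap4 (1.50), was at 1.15, and Gimap7, Gimap1 and Gimap5 were at 0.22, 0.32 and 0.47. The 3 proximal neighbours, Zfp775, Repin1 and Gm5111, were not called in either sex (-0.12, -0.04 and 0.14 in males, 0.02, -0.17 and -0.11 in females). On the distal side Tmem176b and Tmem176a, membrane protein genes of myeloid and dendritic cells, start 63.0 and 70.6 kb beyond Gimap3. They rose in males by 1.04 ± 0.13 and 1.23 ± 0.15 (adjusted p = 1.15e-05 and 1.19e-05, limma). In females Tmem176a rose by 0.72 ± 0.20 (adjusted p = 0.0466), and Tmem176b stood at 0.38 ± 0.16 (adjusted p = 0.28). Gm7932 beyond them was not called in either sex (0.14 and 0.01).

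The difference between the sexes in the PPE response was tested as an interaction, and none of the 8 genes was called (limma), beside 0.541% of all genes. At an unadjusted p below 0.05 there were 2 of 8, Gimap6 and Gimap8, beside 9.95% of all genes. The response of Gimap6 was lower in males than in females by 0.68 ± 0.23 on the log2 scale (male minus female -0.68, 95% interval -1.15 to -0.20, adjusted p = 0.239), and that of Gimap8 was also lower in males (-0.44 ± 0.19, interval -0.83 to -0.04, adjusted p = 0.443). For Gimap3 the interval ran from -0.81 to 0.63 and for Gimap4 from -0.22 to 0.77, so sex differences within those intervals were not resolved. In sham aortae the signal of 7 of the 8 genes was called lower in males (all but Gimap9), but so were 69.6% of all genes, whose median difference was -0.48. With each array centred on its median, none of the 8 was called and 0 had an unadjusted p below 0.05 (limma; the smallest adjusted p was 0.137, for Gimap4), and the estimates ran from -0.50 for Gimap3 to 0.24 for Gimap9. So centred, 8189 of all 30142 genes were called in either direction. Sex and any processing step that went with it cannot be told apart here.

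The marker lists of cell types that make GIMAP proteins changed unequally. Of all genes, 9.67% were called higher in males and 2.77% in females. T cell markers rose in 12 of 13 measured members in males (median 0.97) and in 7 of 13 in females (median 0.82). At an unadjusted p below 0.05 there were 12 of 13 in each sex (limma). Cd3e, which encodes a signalling chain of the T cell receptor, rose by 2.08 ± 0.26 in males (adjusted p = 1.3e-05, limma) and by 1.72 ± 0.33 in females (adjusted p = 0.00762), close in size to Gimap3 and Gimap4. The co-stimulatory gene Cd2 rose by 1.56 and 1.36, Cd3g by 1.47 and 1.42 and Cd3d by 1.16 and 0.82 in males and females. NK cell markers rose in 8 of 8 members in males (median 1.91) and in 5 of 8 in females (median 0.98, 7 at an unadjusted p below 0.05, limma). Among these Klrd1 rose by 2.42 and 1.76 and the granzyme gene Gzma by 2.10 and 1.10, Klrb1c rose by 1.73 and 0.85, and the receptor gene Ncr1 rose by 2.54 in males and stood at 1.28 in females (adjusted p = 0.0544). Of genes of lymphocyte homing and survival, Il7r, the interleukin 7 receptor gene, rose by 1.48 in males and 1.37 in females, and Ccr7, the homing receptor gene, by 1.30 and 0.70. In that list 3 of 6 rose and 1 fell in males, and 3 of 6 rose in females.

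The difference after PPE was higher in females than in males for 7 of 7 B cell markers, a direction that they did not have alone. The same held for 5 of 13 T cell, 0 of 8 NK cell, 4 of 8 neutrophil and 0 of 9 monocyte and macrophage markers. For blood endothelium it held for 10 of 11, for lymphatic endothelium 3 of 4 and for smooth muscle 8 of 9. For lymphocyte homing and survival it held for 4 of 6 and for adipocytes 1 of 9. A higher difference can be a smaller fall, as in smooth muscle (medians -2.35 in males and -1.54 in females). None of 7 B cell markers was called in males (median -0.19, 0 at an unadjusted p below 0.05, limma). In females 2 of 7 rose (median 1.14, 7 at an unadjusted p below 0.05), Ms4a1, which encodes CD20 (2.05 ± 0.50, adjusted p = 0.0247, limma), and Cd79b of the B cell receptor (1.14 ± 0.31, adjusted p = 0.0457). Ms4a1 ran from 6.75 to 7.67 in female sham and from 8.47 to 10.42 in female PPE aortae, but from 5.50 to 7.84 in male sham and from 6.01 to 6.60 in male PPE aortae. The interaction for Ms4a1 was -2.24 ± 0.63 (adjusted p = 0.128). The part of B cells in the values of Gimap6 and Gimap8 was not tested.

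No endothelial marker was called higher. Of 11 measured markers of blood endothelium 5 fell in males and none was called in females (medians -0.48 and 0.00, with 6 and 4 at an unadjusted p below 0.05, limma). Of all genes 9.98% were called lower in males and 1.45% in females. Cdh5 stood at -0.07 and 0.16 and Pecam1 at -0.48 and -0.29, of which the male Pecam1 value was called (adjusted p = 0.000329, limma). Tek was at -0.89 in males (adjusted p = 6.14e-05) and at -0.53 in females (adjusted p = 0.0923). Other markers lay above 0. Kdr, the highest of the list in each sex, stood at 0.21 and 0.37 (adjusted p = 0.391 and 0.421, limma). Emcn stood at 0.03 and 0.09 in males and females. The log2 of the summed signal of the 11 markers ran from 14.81 to 15.04 in male sham, 14.39 to 14.88 in male PPE, 15.03 to 15.46 in female sham and 15.08 to 15.31 in female PPE aortae. For the 13 T cell markers it ran from 10.45 to 10.62, 11.01 to 11.89, 11.19 to 11.53 and 12.07 to 12.99 in the same order of groups, with no overlap between sham and PPE. For the 7 B cell markers it ran from 8.33 to 9.77 in male sham, 8.59 to 8.96 in male PPE, 9.41 to 9.94 in female sham and 10.17 to 11.79 in female PPE aortae. The lists hold different genes and probe sets, so each sum compares groups within its list and gives no relative amounts of cell types. A log2 signal above 0 does not show that a marker was detected. The mean log2 signal of the 7 B cell markers ran from 5.48 to 6.79 in male sham and from 5.71 to 6.04 in male PPE aortae. Male array medians lay between 5.61 and 5.85, so these markers were dim in males. Of 4 lymphatic markers 2 fell in males, Prox1 (-0.75) and Flt4 (-0.46), and none was called in females (0 at an unadjusted p below 0.05, limma). The lymphatic marker Lyve1 stood at -0.28 in each sex.

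Myeloid and wall markers moved as well. Of all genes, 9.67% were called higher and 9.98% lower in males, and 2.77% and 1.45% in females. Monocyte and macrophage markers rose in 9 of 9 in males (median 1.91) and in 1 of 9 in females, Fcgr1 at 1.86 (median 0.80). Cd68 rose by 1.65 in males and stood at 0.86 in females (adjusted p = 0.3), Adgre1 rose by 2.12 and stood at 0.80 (adjusted p = 0.535), and Itgam rose by 1.91 and stood at 1.11 (adjusted p = 0.123). Neutrophil markers rose in 7 of 8 in males and 5 of 8 in females, with S100a8 at 2.93 and 3.68, S100a9 at 2.87 and 3.31, and Csf3r at 2.49 and 2.09. Smooth muscle markers fell in 9 of 9 in males and 8 of 9 in females (medians -2.35 and -1.54), with Acta2 at -0.74 and -0.84, Itga8 at -3.44 and -2.19, and Smtn at -1.78 and -0.82. Myh11 fell by 2.90 in males, and in females it stood at -1.65 (adjusted p = 0.0553). None of 9 adipocyte markers was called in either sex (limma; 2 in males and 0 in females at an unadjusted p below 0.05), with Adipoq at 0.43 and -0.68, Plin1 at -0.23 and -0.84, Lep at -0.50 and -0.59 and Plin4 at -1.12 and -0.76 in males and females. The part of these cell types in the Gimap differences was not tested.

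**Figure D3:**
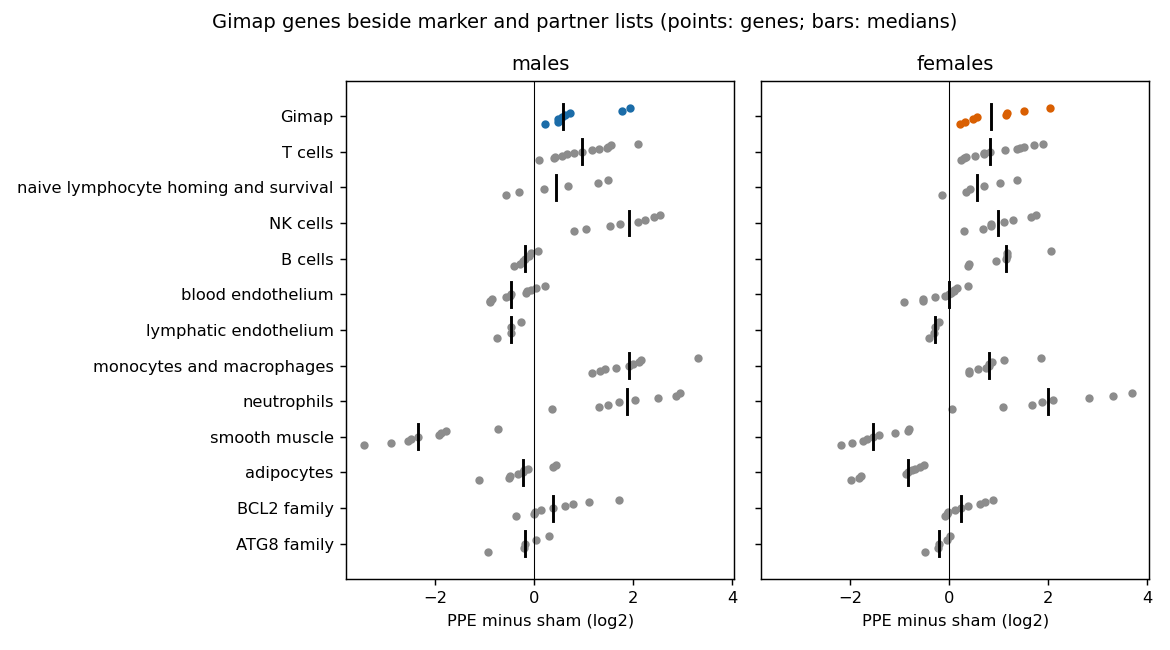
PPE minus sham (log2, horizontal axes) for the 8 Gimap genes and for each measured gene of the marker and partner lists in males and females; points are genes and bars are list medians. The Gimap median, 0.59 in males and 0.85 in females, lies below that of T cells in males (0.97) and beside it in females (0.82), and endothelial points lie around or below 0.

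Known binding partners of GIMAP proteins were set beside the family. GIMAP5 and GIMAP3 have been linked to BCL2 family proteins, the regulators of mitochondrial cell death. Of 9 measured members of that family 5 rose in males (median 0.39) and 2 in females (median 0.24), beside 9.67% and 2.77% of all genes. Bcl2l11, which encodes the death-promoting BIM, rose by 1.11 ± 0.17 in males (adjusted p = 9.42e-05, limma) and by 0.88 ± 0.22 in females (adjusted p = 0.0278). The other member called in females, Mcl1, rose by 0.78 in males (adjusted p = 0.000236, limma) and by 0.61 in females (adjusted p = 0.0457). Bcl2a1d, a survival gene of leukocytes, rose by 1.71 ± 0.16 in males (adjusted p = 1.49e-06) and stood at 0.71 in females (adjusted p = 0.0688). Bcl2 itself stood at -0.36 in males (adjusted p = 0.0559) and -0.09 in females, and Bcl2l1, which encodes BCL-XL, at 0.13 and 0.11. Gabarapl2, the partner of GIMAP6, stood at 0.03 ± 0.10 in males and 0.02 ± 0.13 in females. Of its 5-member ATG8 family 1 rose and 3 fell in males and 1 fell in females. Among all genes, 9.98% were called lower in males and 1.45% in females. Gabarapl1 fell by 0.94 and 0.49, Gabarap rose by 0.29 in males and stood at -0.05 in females, and Map1lc3b fell by 0.19 in males and stood at -0.22 in females (adjusted p = 0.19).

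**Figure D4:**
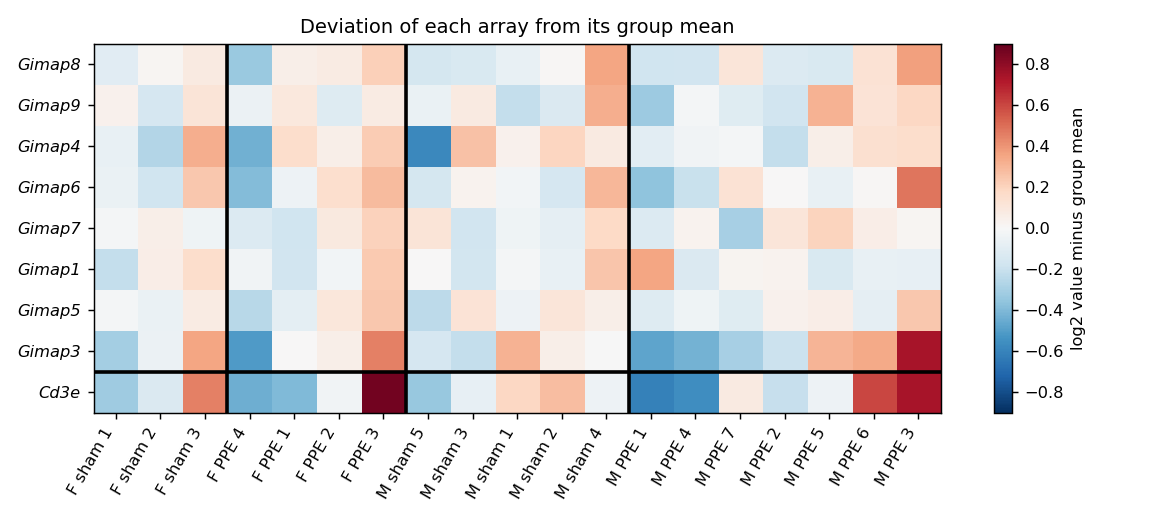
Log2 value of each array minus its group mean (colour) for the 8 Gimap genes and Cd3e; columns are the 19 arrays, F and M for female and male, ordered within each group by the mean deviation of the 8 genes. Female PPE 3 lies above its group mean for 8 of 8 genes and female PPE 4 below it for 8 of 8.

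Within groups several of the genes, though not all, also varied together from mouse to mouse. The PPE arrays with the largest mean deviations are given first. Female PPE 3 lay above its group mean for 8 of 8 genes (mean deviation 0.24) and female PPE 4 below it for 8 of 8 (-0.27). Male PPE 3 lay above its group mean for 7 of 8 (0.27), while male PPE 1 and male PPE 4 each did so for 1 of 8 (-0.17 and -0.12). Cd3e deviated by 0.87 in female PPE 3, -0.44 in female PPE 4, 0.74 in male PPE 3, and -0.61 and -0.56 in male PPE 1 and male PPE 4. Over all 19 arrays the mean Gimap deviation and that of Cd3e had the same sign in 13 and opposite signs in 6 (female PPE 2, male sham 1, male sham 2, male sham 4, male PPE 5 and male PPE 7). The mean deviation of the 13 measured T cell markers had the opposite sign only in female PPE 2, male sham 1 and male sham 5. Among the 6 arrays of opposite sign for Cd3e, male sham 4 had the largest Gimap deviation. It lay above its group mean for 7 of 8 Gimap genes (0.19), with Cd3e at -0.04 and the mean of the T cell markers at 0.07. Its adipocyte markers averaged 12.83 against 8.06 to 9.16 in the rest of that group. Female PPE 4 also had the highest adipocyte average of its group, 11.63 against 9.26 to 10.27, but its Gimap genes lay below the group mean. In female sham aortae the adipocyte average ran from 10.87 to 12.03. The part of fat tissue in the Gimap values of these arrays was not tested. Without male sham 4 the male differences of Gimap6, Gimap8 and Gimap9 were 0.55, 0.81 and 0.71, beside 0.47, 0.72 and 0.62 with it. Those of Gimap3, Gimap4 and Gimap5 were 1.94, 1.80 and 0.56, beside 1.94, 1.78 and 0.55. Those of Gimap1 and Gimap7 were 0.28 and 0.52, beside 0.22 and 0.48.

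Between pairs of genes, Gimap6 and Gimap8 deviated most alike over the 19 arrays (r = 0.87), followed by Gimap4 with Gimap5 and Gimap5 with Gimap6 (both r = 0.73). Gimap1 was the least like the others, with r from -0.20 with Gimap9 to 0.26 with Gimap8. For Gimap7, r ran from -0.09 with Gimap4 to 0.41 with Gimap3. These values share arrays and signal scale and are a description. Of 19042 other genes with a RefSeq protein, those whose deviations from the group means were most like the mean of the 8 Gimap genes were Dennd2d (r = 0.93), Satb1 (r = 0.90), Slamf6 (r = 0.87), Zfp831 (r = 0.87), Cd3g (r = 0.87), Cd96 (r = 0.86), P2ry13 (r = 0.85), Traf3ip3 (r = 0.84), Sidt1 (r = 0.84) and Ikzf3 (r = 0.84), each over 19 arrays. Satb1 encodes a chromatin organiser of T cells, Slamf6 and Cd96 receptors of T and NK cells, and Ikzf3 the lymphocyte transcription factor Aiolos. Spearman's rho for the 10 ran from 0.77 to 0.92. Without the 2 arrays farthest from the median, male PPE 3 and female PPE 3, r ran from 0.73 to 0.88. After PPE all 10 rose in males, from 0.46 for Zfp831 to 1.77 for P2ry13, and 9 rose in females, with Zfp831 at 0.43 (adjusted p = 0.0623, limma). The 10 were picked for the highest r, so these values are not tests.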

How the data were processed

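The authors deposited 1 table of log2 signals per probe set for 19 arrays. RNA of each mouse was labelled with the WT PLUS kit, per the labels' protocols, and the submitters' processing notes name the Transcriptome Analysis Console and mm10. For its version, background correction and normalization between arrays the sources used here say nothing. Array medians lay between 6.17 and 6.31 in females and 5.61 and 5.85 in males. Of 65956 probe sets, 30604 carried exactly 1 gene symbol in the platform annotation, 2146 had more than 1, and 33206 were absent from it. Outdated symbols of 827 were replaced through the gene ID, and the brightest probe set per gene was kept, which left 30142 genes. No pair of arrays shared over 2.5% of its values.

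Group means of all 19 arrays were fitted in R 4.3.3 by limma 3.58.1 (lmFit, eBayes) without block or filter. The Benjamini-Hochberg adjustment ran over all 30142 genes, and a gene below 0.05 was called. The members and lists were chosen with earlier results of these data known. Named were the 8 Gimap genes, the first 2 genes of each list and the 2 with the lowest p averaged over the sexes, the 3 nearest measured protein-coding genes on each side of the cluster, and the 10 genes most like the family; other genes named were chosen after their values were seen. The motif set was chosen after the values were seen and shortened once (an NF-kappa B motif and a longer IRF motif, neither with a match in these windows, were dropped), and both strands were searched. Simulated data with 200 changed genes were used to test the fit. Alternatives were other normalizations, probe set rules, a filter on dim genes, other variance models, array weights, fewer groups, a replicate block and each array left out.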

Additional observations from a re-analysis of the deposited data

Results flagged for a closer look

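In 24 sets of values (8 genes in the 3 groups of at least 4 mice), 2 had 1 array far from the others by Dixon's test at the 95% level, and chance alone gives that in about 1 in 20 such sets. Gimap4 in male sham 5 was at 9.50, where the rest of its group lay between 10.12 and 10.34. Without that array the male difference of Gimap4 was 1.63 and stayed called. Gimap1 in male PPE 1 was at 8.44, where the rest of its group lay between 7.95 and 8.12. Without that array the male difference of Gimap1 was 0.16 (adjusted p = 0.227, limma), and it was called neither with nor without it.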

How the results depend on the processing

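Every PPE difference of the 8 genes kept its sign in all alternatives run in both sexes. In males the number of Gimap genes called ranged from 6 to 8 and in females from 4 to 7. The count over all genes in males was 5923 and fell to 3535 with the replicate block. In females it was 1273 and became 3951 with array weights, 1970 with only the groups compared, 639 with the replicate block and 2454 without male sham 4, male sham 5 and male PPE 1, an alternative chosen after seeing the data. With 1 array left out it ranged from 368 (without female sham 2) to 1613. Of the genes of the marker and partner lists 34 were called in females, 56 with array weights, 18 with the replicate block and from 10 (without female sham 2) to 42 with 1 array left out. Same-numbered sham and PPE arrays did not deviate together (r from -0.32 to 0.19 over 5 male pairs and from -0.23 to 0.24 over 3 female pairs). So few pairs cannot show that no step was shared. The sample titles give only a number, and the reported fit has no block. Of the genes called, 49.2% were higher in males as deposited, 60.3% after median centring and 57.5% after quantile normalization; in females the shares were 65.6%, 69.1% and 44.1%.

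For the sex difference of the response, which was called for none of the 8 genes in any alternative (limma; 1 to 3 genes at an unadjusted p below 0.05), the sign turned after quantile normalization for Gimap1 (0.0721) and Gimap3 (0.0194). With 1 array left out it ran from -0.1809 to 0.0041 for Gimap1 (turned without female sham 1), from -0.2708 to 0.0592 for Gimap3 (turned without female sham 1 or female PPE 3) and from -0.0061 to 0.1572 for Gimap5 (turned without female PPE 4). The difference between the sexes at sham, whose alternatives were added after seeing the data, was called for 2 genes after quantile normalization and for 0 after median centring (limma; 3 and 0 at an unadjusted p below 0.05), against 7 as deposited. Of all 30142 genes, 9088, 8189 and 21653 were called in either direction, in the same order. The sham difference turned with quantile normalization for Gimap7 (0.087) and Gimap9 (0.189), and with median centring for Gimap1 (0.131), Gimap7 (0.062), Gimap8 (0.0247) and Gimap9 (0.235). The causes were not tested, except that centring removes the shift of the array medians by construction.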
